A study of Homo sapiens with 2 samples.

Results

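The mRNAs described here are the transcripts that carry an iron-responsive element (IRE) and the transcripts of the proteins that read it. FTH1, FTL, TFRC, SLC40A1 and SLC11A2 carry the element, and ACO1 and IREB2 encode the iron regulatory proteins IRP1 and IRP2. Members were the IGF2BP3 binding sites (peaks) that overlapped the genomic span of any of these 7 genes by at least 1 bp, with gene models from GENCODE 44 on hg38. There were 18 such peaks among 21142 in replicate 1 and 15 among 20799 in replicate 2. The genes were named by the roles of their products, but earlier results of these data were known when they were chosen.

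The peaks come from LACE-seq, in which RNA crosslinked to a protein by UV light is immunoprecipitated and the ends of its cDNA are amplified linearly and sequenced. The cells were OE-19, an established line derived from an esophagogastric junction adenocarcinoma, grown in RPMI1640 with 10% fetal bovine serum, given no treatment named in the labels, exposed to UV and immunoprecipitated with an antibody to IGF2BP3. Both libraries belong to 1 group, which the study calls biological replicates. Neither a control library nor an RNA level was analysed here, so no test between conditions was possible, and the amount of an mRNA and the binding per molecule cannot be told apart.

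Cells set the translation and stability of these mRNAs by the iron they hold. When iron is scarce, IRP1 and IRP2 bind a hairpin, the IRE, whose upper stem carries a loop of the form CAGUGN. An IRE in the 5′ UTR blocks the start of translation when bound, as in the ferritin mRNAs, and IREs in the 3′ UTR shield the transferrin receptor mRNA from cleavage. When iron is ample, IRP1 takes up an iron-sulfur cluster and acts as a cytosolic aconitase, and IRP2 is degraded. IGF2BP3 is a different RNA-binding protein, described in the study as a reader of N6-methyladenosine that stabilizes target mRNAs.

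Because the question was whether binding sites lie on the UTR that holds the element, the elements were located first. UTRs of every coding transcript were searched on the gene strand for a C, 5 bases, the loop CAGTGN and 5 bases, where at least 4 of the 5 positions on each side of the loop pair. The 5 IRE mRNAs held 8 such elements, 7 of them with all 5 positions paired. IREs that depart from this pattern were not searched, so these need not be all the IREs of the mRNAs. They are shown because each result below is measured against their positions. Each line gives 29 nt of the hg38 gene strand, 5′ to 3′, with the 6 bases of the loop in capitals. Distances are taken from the summit to the nearest base of the 29 nt. Some member summits lay in introns or upstream of the canonical transcript start, so a short distance does not place the binding on the element. FTH1, TFRC, SLC40A1 and SLC11A2 lie on the minus strand and FTL on the plus strand.
FTH1 5′ UTR, chr11:61967574-61967602: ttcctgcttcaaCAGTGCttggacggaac
FTL 5′ UTR, chr19:48965335-48965363: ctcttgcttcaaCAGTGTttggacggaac
SLC40A1 5′ UTR, chr2:189580661-189580689: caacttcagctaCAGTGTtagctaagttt
TFRC 3′ UTR, element 1, chr3:196050979-196051007: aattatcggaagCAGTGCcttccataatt
TFRC 3′ UTR, element 2, chr3:196050575-196050603: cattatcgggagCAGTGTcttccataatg
TFRC 3′ UTR, element 3, chr3:196050510-196050538: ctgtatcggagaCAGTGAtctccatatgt
TFRC 3′ UTR, element 4, chr3:196050463-196050491: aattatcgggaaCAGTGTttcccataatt
SLC11A2 3′ UTR, chr12:50988269-50988297: agccatcagagcCAGTGTgtttctatggt

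The ferritin elements had the same base at 26 of 29 positions, whereas the FTH1 and SLC40A1 elements shared 13. RNAfold placed all 6 loop bases unpaired in the 7 elements of FTH1, FTL, SLC40A1 and TFRC, with folding energies from -5.3 kcal/mol in FTL to -11.2 kcal/mol in TFRC element 4. In SLC11A2 4 of 5 positions paired and 3 of the 6 loop bases were unpaired. The same pattern occurred with 4 of 5 positions paired in the 3′ UTRs of ACO1 (chr9:32452986-32453014) and IREB2 (chr15:78500969-78500997), where it is a match of letters and not a known element. Among canonical transcripts, the pattern was held by 0.535% of 5′ UTRs and 4.22% of 3′ UTRs. The rates in the reverse complement of those UTRs were 0.509% and 3.73%, and the fully paired form was held by 0.0977% and 0.612%.

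Peaks were found on 5 of the 7 genes in each list, beside 41% of all 20033 protein-coding genes in replicate 1 and 42.2% in replicate 2. FTH1, FTL, TFRC and SLC40A1 had peaks in both replicates, and in each of these 4 genes peaks of both replicates overlapped. Of all protein-coding genes 34.7% had a peak in both replicates and 30.5% had overlapping ones. SLC11A2 had 3 peaks in replicate 1 alone, IREB2 had 2 in replicate 2 alone, and ACO1 had none in either list.

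The UTR that holds the element carried a peak in both replicates in FTH1, FTL, SLC40A1 and TFRC. These peaks covered all 7 elements found in these 4 mRNAs in both lists, and the SLC11A2 element lay under no peak. Of the 7 elements, 4 lay under the same wide TFRC peak, and the 5′ UTR peaks covered most or all of each 5′ UTR. Coverage of an element therefore does not place the binding on it rather than elsewhere in the UTR. Of all protein-coding genes with the region, 12.9% had a peak on the 5′ UTR in both replicates and 20.7% on the 3′ UTR. Among genes that had a peak in both replicates anywhere, these shares were 36.5% and 59.7%. Of all elements found in canonical transcripts, 11.4% of 105 in 5′ UTRs and 6.5% of 892 in 3′ UTRs lay under a peak in both replicates. These shares include the elements shown above and genes without any peak, and elements across an exon junction counted as not covered. They are thus not a like comparison for elements in genes that had peaks, for which no share is given.

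**Figure D1:**
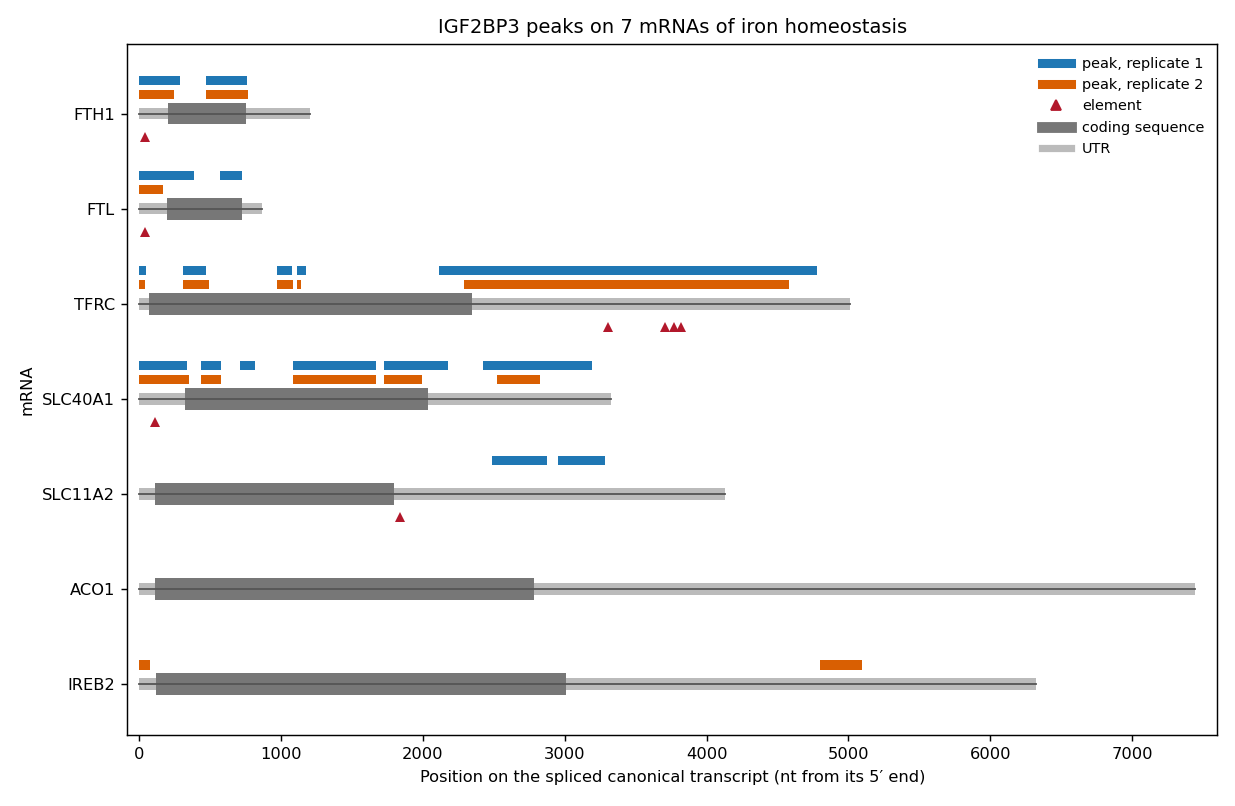
IGF2BP3 peaks on the spliced canonical transcript of each of the 7 genes, with position in nt from the 5′ end on the horizontal axis. Blue and orange bars are the exonic parts of peaks of replicates 1 and 2, dark and light grey boxes are coding sequence and UTRs, and red triangles are the 8 elements. Peaks of both replicates lie over the elements of FTH1, FTL, TFRC and SLC40A1, and the peaks of SLC11A2 lie downstream of its element.

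Ferritin stores iron in a shell of heavy and light chains, and FTH1 encodes the heavy chain, which oxidizes iron. FTH1 (ENSG00000167996.16, chr11:61959718-61967634, minus strand) had 2 peaks in each list. The peak over the element spanned chr11:61967344-61967839 in replicate 1 with a fold enrichment over local background of 11.3 and 143 reads piled up at its summit. In replicate 2 it spanned chr11:61967391-61967866 with a fold of 14.4 and 194 reads. These were the largest pileups of all 33 member peaks, and the fold averaged 12.9 ± 2.25 (SD, n = 2). Both peaks covered the 209 nt of the 5′ UTR in full. The summit lay inside the 29 nt of the element in replicate 1 and 3 bp from it in replicate 2. The −log10 q was 94.9 and 149.

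The second FTH1 peak covered exon 3 and the start of exon 4, at chr11:61964728-61965363 and chr11:61964719-61965352. Its fold was 6.42 and 5.74, with 82 and 79 reads, so it had less than the 5′ peak by both measures in both replicates. Exon 2, of 147 nt, had no base under a peak in either list. BEST1, a gene of the opposite strand, overlaps the second peak, and ENSG00000279491, also of the opposite strand, overlaps the first. The peaks carry no strand, so a share of their reads from these genes was not tested.

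FTL encodes the light chain, which helps the iron core form. FTL (ENSG00000087086.15, chr19:48965309-48966879, plus strand) had its element under chr19:48965124-48965856 in replicate 1, with a fold of 6.82 and 104 reads. In replicate 2 it lay under chr19:48965097-48965475, with a fold of 7.04 and 117 reads. The replicates therefore nearly coincided, at 6.93 ± 0.153 (SD, n = 2). The fold sat at percentiles 49.6 and 48.4 of the lists and the pileup at 98.2 and 98.7. The summits were 11 and 29 bp from the element, and that of replicate 2 was 3 bp upstream of the annotated transcript start. The peak covered 100% of the 5′ UTR in replicate 1 and 83.9% in replicate 2. The lncRNA gene ENSG00000267898 on the same strand ends inside it. Replicate 1 alone had a further peak on exon 4 (chr19:48966429-48966735, fold 4.37, 69 reads).

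SLC40A1 encodes ferroportin, the exporter of cellular iron, and its mRNA carries the element in the 5′ UTR like ferritin. SLC40A1 (ENSG00000138449.11, chr2:189560590-189583758, minus strand) had 6 peaks in the first list and 5 in the second. The peak on the 5′ UTR had the largest fold of all member peaks in each list. In replicate 1 it lay at chr2:189580445-189580997 with a fold of 18.1 and 70 reads, and in replicate 2 at chr2:189580434-189581018 with a fold of 16.2 and 73 reads. The mean fold was 17.2 ± 1.29 (SD, n = 2), at percentiles 99.5 and 98.2 of the lists. Both lists gave the same summit, 189580722, which is 33 bp from the element, and the peak covered all 326 nt of the 5′ UTR in both. The element is in 1 of 5 coding transcripts of the gene, the canonical one.

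The other SLC40A1 peaks lay on exons 3, 5, 7 and 8. Exon 7, in coding sequence, had folds of 6.44 and 8.93 with 100 and 109 reads, the largest pileups on this gene. Exon 3 had 27 reads in replicate 1 and 60 in replicate 2, with folds of 7.40 and 12.4. The last exon had a peak on its coding part (folds 5.43 and 3.90, 84 and 47 reads), which reached into the 3′ UTR in replicate 1 alone, and one in the 3′ UTR (folds 5.07 and 4.23, 78 and 51 reads). The peak on exon 5 was in replicate 1 alone, with a fold of 9.44 and 30 reads. The 5′ peak thus had the highest fold and not the highest pileup of the gene in both replicates.

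TFRC encodes transferrin receptor 1, through which cells take up iron. The 4 elements that the pattern found in this mRNA lie within 533 nt of the 3′ UTR. TFRC (ENSG00000072274.14, chr3:196012511-196082153, minus strand) had 5 peaks in each list, which formed 5 overlapping pairs. A wide peak covered the 4 elements in both lists. It was 2728 bp in replicate 1 (chr3:196049518-196052245), with a fold of 4.99 and 121 reads. In replicate 2 it was 2286 bp (chr3:196049717-196052002), with a fold of 5.35 and 88 reads. Only 3 peaks of replicate 1 and 8 of replicate 2 were wider, against list medians of 336 and 342 bp.

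This wide peak covered 91.2% and 83.7% of the 2661 nt of the TFRC 3′ UTR, so that its overlap with the elements located nothing within it. Its summit was 619 to 1135 bp from the elements in replicate 1 and 199 to 715 bp in replicate 2, and the summits of the replicates were 420 bp apart. The fold was low within the lists, at percentiles 15.6 and 17.1, whereas the pileup was at 99.0 and 96.8. The coding exons of TFRC that had peaks of their own, exons 4, 9 and 10, had higher folds than the wide peak in both replicates. Their local background was 2.73 to 5.24 reads, against 23.4 and 15.6 reads at the wide peak. Exon 4 had folds of 9.71 and 11.5 with 44 and 42 reads, exon 9 had 9.45 and 8.84 with 58 and 38 reads, and exon 10 had 5.66 and 5.87 with 32 and 23 reads. Exon 1 had folds of 7.74 and 9.52 with 14 and 20 reads. The summit sequence of the exon 10 peak of replicate 2, which lies in the intron, occurred at 1695 places in the genome.

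SLC11A2 encodes DMT1, which moves ferrous iron across membranes, and its element is in the 3′ UTR of 6 of 24 coding transcripts. SLC11A2 (ENSG00000110911.17, chr12:50979401-51028566, minus strand) had peaks in replicate 1 alone. Those at chr12:50987252-50987635 (fold 5.27, 18 reads) and chr12:50986842-50987172 (fold 5.38, 17 reads) were on the UTR that holds the element, with summits 732 and 1173 bp from it. The peak at chr12:50981534-50981944 (fold 7.10, 19 reads) had its summit in an exon of 7 coding transcripts, none of which holds the element. All 3 pileups were below the list median of 22 reads, and none of the peaks covered the element.

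Of the iron regulatory proteins, IREB2 (ENSG00000136381.13, chr15:78437431-78501453, plus strand) had 2 peaks in replicate 2. One touched the 5′ UTR (chr15:78437998-78438291, fold 5.91, 7 reads) and the other the 3′ UTR (chr15:78499931-78500224, fold 6.92, 11 reads). These were the lowest pileups of the member peaks of that list. ACO1 (ENSG00000122729.19, chr9:32384603-32454769, plus strand) was listed in neither replicate, and whether its mRNA was absent or unbound was not tested.

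Recurrence of the member peaks was compared with that of all peaks. Of the former, 13 of 18 in replicate 1 (72.2%, Clopper-Pearson 95% interval 46.5 to 90.3) and 13 of 15 in replicate 2 (86.7%, 59.5 to 98.3) overlapped the other list. The shares among all peaks were 60.1% and 61.2%. Both intervals hold the share of all peaks, so no difference from it was shown, and peaks of 1 gene are not independent. The part of the large pileups of the member peaks in these shares was not tested.

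Spread between replicates was judged from the 13071 overlapping pairs of the lists. The log2 ratio of fold in replicate 2 over 1 had an SD of 0.42 and lay between -0.62 and 0.78 from the 5th to the 95th percentile. All 13 member pairs lay within this range. For pileup the range was -1.18 to 1.11, and 12 of 13 pairs lay within it. The exception was SLC40A1 exon 3, where the log2 ratio was 1.15.

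Member peaks combined large pileups with middling folds. The median pileup was 63.5 reads in replicate 1 and 51 in replicate 2, against 22 reads for all peaks in both, and 14 of 18 and 12 of 15 peaks were above that median. The median fold was 6.63 and 7.04, against 6.89 and 7.13 for all peaks. Median percentiles were 45.1 and 48.4 for fold and 92.1 and 86.0 for pileup. Fold and pileup can order sites differently because the fold is taken over the local background of each summit. That background was 23.4 and 15.6 reads at the wide TFRC peak and 2.93 and 3.56 reads at the 5′ peak of SLC40A1.

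**Figure D2:**
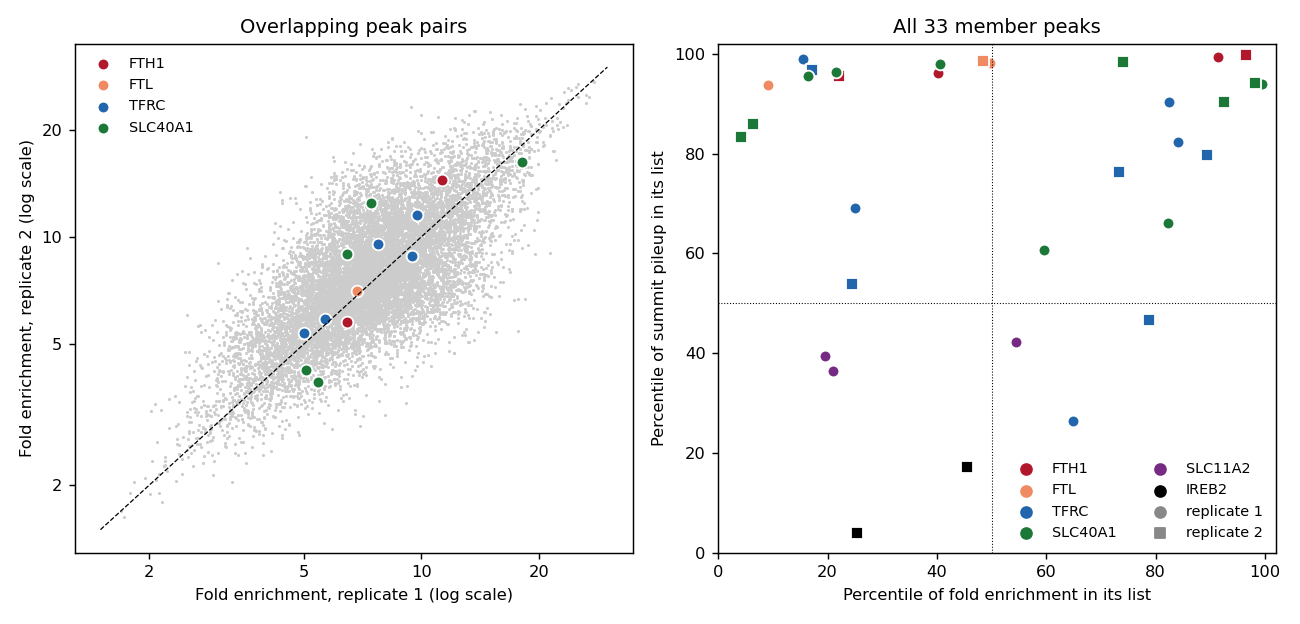
Left, fold enrichment in replicate 1 against replicate 2 on log axes for all 13071 overlapping pairs (grey) and the 13 member pairs (coloured by gene); the dashed line marks equal values. Right, percentile of fold against percentile of summit pileup within its list for the 33 member peaks (circles, replicate 1; squares, replicate 2; dotted lines, the list medians), where FTH1 and SLC40A1 5′ peaks are high on both axes and the wide TFRC peaks are high in pileup alone.

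The place of the summit within a peak affected the region to which it was assigned. At the summit, 12 of 18 member peaks in replicate 1 and 8 of 15 in replicate 2 lay in the 5′ UTR, coding sequence or 3′ UTR of the canonical transcript. With each summit moved downstream by 146 bp in replicate 1 and 147 bp in replicate 2, which takes an edge summit of the narrowest peak to its centre, these numbers were 15 and 13. The move was chosen after the values were seen. No share over all peaks stands beside these counts, so whether the change is particular to the member peaks was not tested. The coverage of 5′ UTRs did not rest on summits. Outside FTH1, FTL and SLC40A1, peaks of replicates 1 and 2 covered 66.2% and 63.4% of the TFRC 5′ UTR. For IREB2 these shares were 0% and 62.3%, and for SLC11A2 and ACO1 0% in both. Of all bases of canonical 5′ UTRs, 9.16% and 16.9% lay under a peak in replicates 1 and 2. Those include genes without any peak, so they are not a like comparison for the 5′ UTRs of genes with a 5′ peak.

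The study relates IGF2BP3 binding to the motif UGGAC, here searched as TGGAC on both strands in 101-nt windows centred on the summit. It was found in 4 of 18 member windows in replicate 1 and 1 of 15 in replicate 2, beside 17.2% and 17.3% of all windows. Its core GGAC, which every TGGAC contains, was found in 8 of 18 and 6 of 15, beside 48.7% and 54.6%. TGGAC lies just 3′ of the loop inside both ferritin elements shown above, at chr11:61967579-61967583 in FTH1 and chr19:48965354-48965358 in FTL. None of the other 8 matches of the element pattern in the 7 genes holds it.

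Ferritin mRNAs have many reverse-transcribed copies in the genome, and reads from FTH1 or FTL mRNA can align to them. Of all 31-mers within exons, 57.6% of FTH1 and 49.1% of FTL occurred more than once in hg38, against 0% for TFRC, SLC40A1 and SLC11A2. The 31-mers that hold the whole 17-nt core of the FTH1 element occurred 3 to 8 times and those of FTL 2 to 3 times, and those of the other elements occurred once. The summit 31-mer of the FTH1 5′ peak had 7 and 4 copies. When only peaks with a summit 31-mer that occurs once were kept, the FTH1 5′ peak was lost and 6 of the 7 elements and 3 of the 4 element UTRs were still covered in both lists.

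GENCODE names 25 pseudogenes of FTH1 and 16 of FTL. Of these 41, 12 of FTH1 and 5 of FTL had a peak in either list, and 16 of the 17 had overlapping peaks of both replicates. Among all 10658 processed pseudogenes, 12.3% had a peak in either replicate and 7.17% in both. The 33 pseudogene peaks had folds of 5.29 to 22.7 with a median of 12.9, and 6 to 87 reads with a median of 40. The median fold was thus above those of the peaks on the 7 genes, and the median pileup was below theirs.

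The pseudogene with the largest fold was FTH1P7 on chromosome 13, with 20.2 in replicate 1 and 22.7 in replicate 2 and 63 and 81 reads. FTH1P12 on chromosome 9 followed, with folds of 21.4 and 19.4 and 87 and 65 reads. FTH1P2 on chromosome 1 had 19.9 and 11.7, with 51 and 19 reads. FTLP3 on chromosome 20 had 18.7 and 18.5, with 77 and 87 reads, and FTH1P4 on chromosome 3 had 15.03 and 18.1, with 55 and 68 reads. All of these except FTH1P2 had peaks that spanned the copy of the parent's element.

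Pseudogenes with a peak were closer in sequence to the parent mRNA in the median, more so for FTH1 than for FTL. The medians with and without a peak were 95.7% and 77.3% for FTH1, and 82.8% and 75.3% for FTL. FTLP19, at 76.5%, had peaks in both lists, and FTH1P5, at 93.9%, had none. Their identity ranged from 76.5% to 97.2% with a median of 94.6%, against 65.5% to 93.9% with a median of 77.02% for the 24 without a peak. An exact copy of the 17-nt parent element was held by 16 pseudogenes, of which 14 had a peak. Laid on the parent mRNA, 30 of the 33 peaks spanned an exon junction and 21 spanned the element. All 90 of the 31-mers across FTH1 junctions and 70 of 90 across FTL junctions were found in the genome, whereas in the other 5 mRNAs 5.24% to 8.17% were. FTH1 exon 2, which had no peak at its own locus, consists of 31-mers with several copies (100%, of which 26.5% have more than 10), and the summits of 4 pseudogene peaks of replicate 1 and 1 of replicate 2 projected onto it. The methods name an alignment limit of 10 places, and whether it removed reads from exon 2 was not tested. The summit 31-mer of 9 of the 33 pseudogene peaks occurred more than once in the genome. When only peaks with a summit 31-mer that occurs once were kept, 15 of the 17 pseudogenes still had a peak in either list. The ambiguity thus differs between these peaks. The lists hold peaks and not reads, so from which locus the reads of these peaks were transcribed was not tested.

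**Figure D3:**
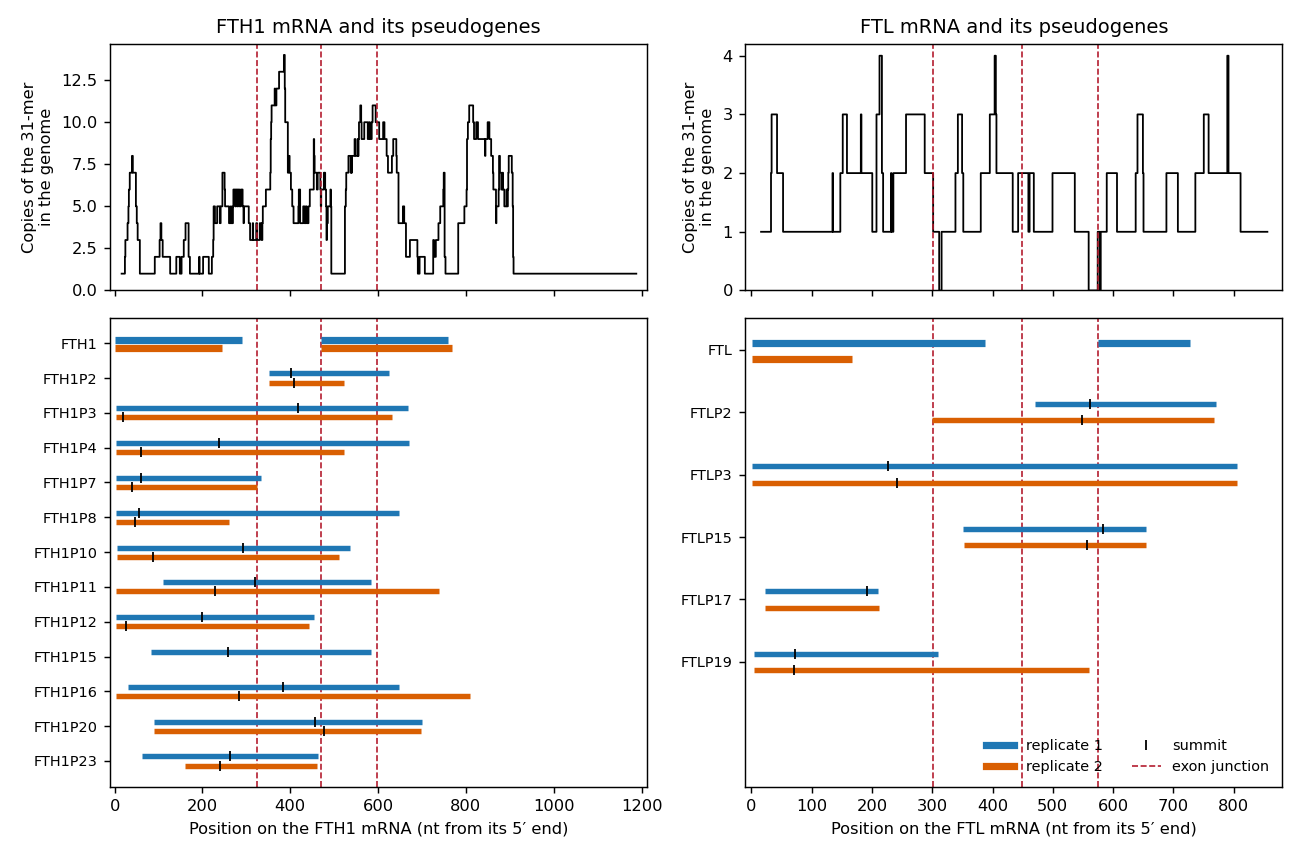
Top, number of genomic copies of each 31-mer along the FTH1 (left) and FTL (right) mRNA, in nt from the 5′ end, where 0 marks a 31-mer across an exon junction found nowhere in the genome. Bottom, peaks at the gene itself and pseudogene peaks laid on the parent mRNA, in blue for replicate 1 and orange for replicate 2, with black ticks at the pseudogene summits and red dashed lines at exon junctions; most pseudogene peaks cross a junction, and FTH1 exon 2 is covered only by pseudogene peaks.

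Other genes of iron metabolism were counted from a list of 30 that does not include the 7. In each replicate 18 had a peak, 15 (50%) had a peak in both and 14 (46.7%) had overlapping peaks, while 9 had none. The shares of all protein-coding genes given above were 41% and 42.2% per list, 34.7% in both and 30.5% with overlapping peaks. The 5 with the strongest overlapping peaks were PCBP1, TFR2, PCBP2, NFS1 and LYRM4. PCBP1 and PCBP2 encode iron chaperones that deliver iron to ferritin. PCBP1 had folds of 10.5 and 10.5 with 76 and 62 reads in coding sequence. PCBP2 had 9.14 and 9.47 with 36 and 26 reads in an intron. TFR2, a receptor for transferrin, had 9.01 and 9.82 with 22 and 27 reads in coding sequence. NFS1 and LYRM4 form the enzyme that supplies sulfur to iron-sulfur clusters. NFS1 had 8.76 and 9.36 with 37 and 40 reads around the end of the coding sequence. LYRM4 had 10.99 and 8.68 in the 5′ UTR with 19 and 11 reads, below the list median of 22 reads. All 5 were below the SLC40A1 5′ peak in fold in both replicates. Antisense or overlapping transcripts are annotated at PCBP1 (PCBP1-AS1), PCBP2 (PCBP2-OT1, ENSG00000257379 and ENSG00000273658) and NFS1 (ENSG00000272897).

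Of other mRNAs in which an IRE has been reported, EPAS1, CDC42BPA and PFN2 had peaks in both replicates and ALAS2 and CDC14A had none. Among all protein-coding genes the share with a peak in both replicates was 34.7%. The pattern searched here was found in ALAS2 and CDC14A, and no peak covered it in either. EPAS1, the hypoxia-inducible factor HIF-2α, had a 5′ UTR peak with folds of 7.03 and 10.5 and 12 and 19 reads. The pattern was not found in EPAS1, so whether this peak covers the reported element was not tested. CDC42BPA, a kinase of the cytoskeleton, had folds of 10.8 and 11.3 in coding sequence. The overlapping peak of PFN2, a profilin, that ranked highest by fold lay in an intron under the pseudogene TMEM183BP (folds 8.52 and 8.002). Its summit 31-mer occurred at 2 places in the genome in both replicates. As a check of the cell label, 6 of 6 epithelial markers (KRT8, KRT18, KRT19, EPCAM, CDH1 and ERBB2) had peaks in both replicates, and none of 5 markers of other cells did (PTPRC, COL1A1, COL1A2, PECAM1 and DES). PTPRC had 1 peak in replicate 1 and COL1A1 1 in replicate 2.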

How the data were processed

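IGF2BP3 LACE-seq peak lists of 2 replicates of OE-19 cells were used, and no sample was left out. The labels list fastp, HISAT2 and MACS2 with hg38, whereas the methods name Bowtie with at most 10 places per read and Piranha. The files have the MACS2 narrowPeak layout. Peaks were called per replicate, with no strand. The authors deposited the fold enrichment as a ratio over local background, the p-value and q-value as −log10, and a score that repeats the q-value and was not used; summits are offsets in bp.

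The read pileup at a summit was recovered as the whole number that gives both the deposited fold and p-value, for 21142 of 21142 and 20799 of 20799 peaks. It ranged from 8 to 75 and 8 to 77 reads between the 5th and 95th percentiles. Library totals are unknown, and intervals cover counting error only. Regions refer to the canonical transcript unless stated. Percentiles are within a list. Coordinates are 1-based.

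Elements were searched with G-U pairs allowed and folded with RNAfold 2.7.2. Pseudogene peaks were laid on parent mRNAs with blastn 2.17.0, and 31-mer copies were counted on both strands of hg38 without alternative contigs. Pileup recovery and element search were tested on simulated data. Genes were named by rule: the 7 genes, the 5 pseudogenes with the largest fold, the 5 of 30 iron genes with the highest lower percentile among overlapping peaks, and the other reported IRE mRNAs with a peak, of which 1 is not reported here. Members and lists were chosen with earlier results of these data known. Alternatives changed the peaks used, the assignment to genes, the overlap rule, the element rule, the measure of strength and the replicates.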

Additional observations from a re-analysis of the deposited data

How the results depend on the processing

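Of 57 alternative values over 10 results, 49 stayed within the spread between replicates or within 1.5 times the count, and 8 did not. With only the 5000 peaks of each list with the largest −log10 q, member peaks per list went from a mean of 16.5 to 10.5, the mean of the median fold percentiles from 46.8 to 29.4, and iron handling genes with a peak in both lists from 15 to 6. When only summits within 50 bp counted as shared, the mean share of member peaks that recurred went from 79.4% to 42.8%. The mean percentile was 35.3 with the summit in an exon of the gene, and 53.5 without the ferritin genes, an alternative chosen after seeing the data. It was 88.9 by −log10 q and 89.1 by pileup. With 1 replicate left out, member peaks numbered 15 to 18, the share 72.2% to 86.7%, and the percentile 45.1 to 48.4. For the share and the percentile, leaving out 1 of 2 replicates always stays within the spread between them. Those values are among the 49 by construction and do not show stability.

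The 4 genes with overlapping peaks in both lists were 3 when the summit had to lie in an exon of the gene, where the FTL summit of replicate 2 is upstream of the transcript start. The cause of the other changes was not tested. No paired analysis was possible because there is only 1 group. The lists hold only called peaks, so a gene without a peak is not shown to be without reads. The pileups of 7 to 19 reads on SLC11A2 and IREB2 set the precision of those peaks.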
